A study of Mus musculus with 6 samples.

Results

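The genes described here are 10 members of the Notch pathway: the receptors Notch1, Notch2 and Notch3, the ligands Jag1, Jag2, Dll1 and Dll4, and the target genes Hes1, Hey1 and Hey2. They were chosen by name. The probe sets are 10481056 for Notch1, 10494595 for Notch2, 10449775 for Notch3, 10488060 for Jag1, 10402808 for Jag2, 10448034 for Dll1, 10474958 for Dll4, 10434925 for Hes1, 10497203 for Hey1 and 10368556 for Hey2. Each was matched by 1 probe set that the array's platform table pairs with that symbol alone, among 19938 genes that had such a probe set. In all, 23410 probe sets paired with a gene were tested, of 35557 in the deposited table. RNA came from the whole corneas of pups 3 days after birth. There were 3 arrays of wild-type (WT) littermates and 3 of pups carrying K14-DN-Clim, a transgene for a dominant-negative form of the CLIM proteins. CLIM proteins are cofactors of LIM-domain transcription regulators, and the keratin 14 promoter directs the transgene to basal cells of stratified epithelia such as the corneal surface. Neither the strain, the sex and the number of transgenic lines nor whether a sample was a pool of animals is stated in the sources used here. The p-values therefore speak of the spread among these 6 samples, part of which may be technical.

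Notch receptors are membrane proteins that are cut when a ligand on a neighbouring cell binds them. The freed intracellular part enters the nucleus and, with the DNA-binding protein RBPJ and a Mastermind coactivator, switches on target genes. Hes and Hey proteins are basic helix-loop-helix repressors encoded by such targets. In the cornea, Notch signalling is known for its part in the differentiation and repair of the surface epithelium. The pathway also acts in other tissues of the eye: Notch1, Dll4 and Hey genes are used by vessel endothelium, Notch3 by the mural cells that wrap vessels, Jag1 by the growing lens, and Dll1 and Hes1 by retinal progenitors.

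The promoters below are those of the members that stood out most in the values that follow: Hey2, which had the largest difference between the groups, and Notch1 and Dll1, the genes whose groups did not overlap. They are RefSeq sequences, read 5′ to 3′ on the gene's strand, from 250 bases before the annotated start to 50 after it. Capitals mark the core of the RBPJ binding motif, TGGGAA, or its reverse complement TTCCCA.

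Hey2 (GRCm38.p6, chr10:30842734-30843033, minus strand): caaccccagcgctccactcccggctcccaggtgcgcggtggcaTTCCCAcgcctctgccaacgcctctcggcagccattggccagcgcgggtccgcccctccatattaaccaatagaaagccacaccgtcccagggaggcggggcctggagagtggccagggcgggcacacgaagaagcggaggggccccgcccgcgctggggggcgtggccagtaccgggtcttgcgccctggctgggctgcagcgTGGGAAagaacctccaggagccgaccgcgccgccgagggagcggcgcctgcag

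Notch1 (GRCm38.p6, chr2:26503773-26504072, minus strand): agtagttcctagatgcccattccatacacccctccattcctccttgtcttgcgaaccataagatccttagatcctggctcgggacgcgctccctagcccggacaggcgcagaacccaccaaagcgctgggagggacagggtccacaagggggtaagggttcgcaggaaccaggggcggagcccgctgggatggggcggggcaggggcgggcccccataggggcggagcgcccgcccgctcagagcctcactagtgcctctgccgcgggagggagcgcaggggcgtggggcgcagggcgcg

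Dll1 (GRCm38.p6, chr17:15376883-15377182, minus strand): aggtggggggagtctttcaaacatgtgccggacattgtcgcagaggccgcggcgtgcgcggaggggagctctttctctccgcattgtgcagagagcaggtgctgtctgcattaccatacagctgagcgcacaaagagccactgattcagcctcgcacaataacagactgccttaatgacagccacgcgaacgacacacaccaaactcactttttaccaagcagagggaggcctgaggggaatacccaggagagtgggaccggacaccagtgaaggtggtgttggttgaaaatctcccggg

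The Hey2 window held TGGGAA at 2 places. In the printed direction, the first began 207 bases before the start and was on the opposite strand. The second began 3 bases before the start, on the gene's strand, and ran across it. Both were also matches to the longer GTGGGAA, which contains TGGGAA. Windows were listed for 8 of the 10 genes, 9 in all because Dll1 has 2 annotated starts, and Hey2 was the 1 gene with a match. Hes1 and Hey1 had no window in the table. Searched on both strands of 32851 mouse promoter windows of 300 bases, TGGGAA was present in 25.6% and present at least 2 times in 3.79%, while GTGGGAA was present in 6.38% and at least 2 times in 0.256%. A match is a description of these letters and not evidence of binding. The 9 windows had a G+C content from 55.7% (Jag1) to 86.0% (Jag2), against a median of 52.7% over all windows.

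None of the 10 genes passed the adjusted threshold of 0.05 between DN-Clim and WT corneas. All p-values here are from limma, fitted over the 23410 probe sets with Benjamini-Hochberg adjustment, and the 10 adjusted p-values ran from 0.819 to 0.999. In the same fit 3 probe sets passed, all lower in DN-Clim, which is 0.0128% of those tested. Values are log2(intensity + 16), and differences are DN-Clim minus WT on that scale. Among the members, 5 means were higher in DN-Clim and 5 lower, where 42.8% and 57.2% of all probe sets were, and the median difference was 0.04, beside -0.04 over all tested probe sets. The split of all probe sets turned with the scaling between arrays: 44.4% were lower with quantile normalization, at a median of 0.03, and 43.4% with median centring, also at 0.03, while the members stayed at 5 higher. Relative to the WT means, the members had a median of 0.20 in DN-Clim replicate 1, -0.02 in replicate 2 and 0.08 in replicate 3.

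The DN-Clim arrays differed in their signal for markers of other eye tissue, with lens sums high on replicates 1 and 2 and not on replicate 3. Bulk RNA cannot tell carried-over lens or retina tissue from expression of these genes within the cornea, which was not tested. Of 18 lens marker genes 17 had a higher mean in DN-Clim, and their summed intensity on DN-Clim replicates 1 and 2 was 113187 and 108574, against 7504 on DN-Clim replicate 3 and between 7083 and 9300 in WT. The lens differences were not uniform, from -0.07 for Lgsn to 3.56 for Crybb1. Those of Mip (0.005), Foxe3 (0.10) and Hsf4 (0.12) were small, and Foxe3 lay below its WT mean on DN-Clim replicates 1 and 2. Cryab, Crybb2, Lim2 and Grifin, 4 of the 18, had all DN-Clim arrays above all WT arrays, where 3.20% of all probe sets did. On DN-Clim replicate 3 they were at 0.28, 0.30, 0.58 and 0.49 relative to their WT means. The groups of the other 14 overlapped, and the median of the 18 on that array was -0.04. The 8 retina markers summed to 5362 on DN-Clim replicate 1, 9445 on replicate 2 and 2539 on replicate 3, and to values from 1679 to 3679 in WT. Of these, Rax lay above all WT arrays on all DN-Clim arrays, at 0.54 on replicate 3 relative to its WT mean, and 7 overlapped. No lens or retina marker was at 0 in any array, the lowest intensity being 75.3. All 11 defining corneal epithelial markers had signal on every array. This sets neither them nor the lens and retina markers apart, since at most 3.23% of all probe sets lay under 16 on any array. Of the 11, 10 had a lower mean in DN-Clim, with a median difference of -0.28. The 11 summed to intensities of 28918, 25176 and 35122 over DN-Clim replicates 1 to 3, where WT ran from 32466 to 37536. The lowest was 306.6, for the corneal crystallin Aldh3a1 on DN-Clim replicate 1, where it was 995.5 to 1051 in WT. None of the 11 passed the adjusted threshold. The median intensity of an array lay between 230.8 (DN-Clim replicate 2) and 280.9 (DN-Clim replicate 3).

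Replicates are given in the order 1, 2 and 3. Notch1, the receptor most tied to the fate of surface epithelia, gave 8.48, 8.21 and 8.42 on the WT arrays and 8.83, 9.12 and 8.64 on the DN-Clim arrays. All 3 DN-Clim arrays lay above all 3 WT arrays, with a gap of 0.17 between the highest WT and the lowest DN-Clim value. The Notch1 mean went from 8.37 ± 0.14 (SD, n = 3) to 8.86 ± 0.24 (SD, n = 3), a difference of 0.49 (SE 0.196, 95% interval 0.05 to 0.93) or 1.41-fold. Its unadjusted limma p was 0.0329 and its adjusted p 0.819. The values were highest on DN-Clim replicates 1 and 2, which had the high lens and retina sums, and the difference on replicate 3 alone was 0.27. The part of the lens and retina signal in the Notch1 values was not tested.

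Notch2, a broadly expressed receptor, gave 9.43, 9.11 and 9.00 on the WT arrays and 8.87, 8.72 and 9.06 on the DN-Clim arrays. The groups overlapped, since DN-Clim replicate 3 lay between WT replicates 2 and 3. The Notch2 difference was -0.29 (SE 0.197, 95% interval -0.74 to 0.15).

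Notch3, the receptor of mural cells, gave 8.74, 8.12 and 8.36 on the WT arrays and 7.72, 7.82 and 8.28 on the DN-Clim arrays. DN-Clim replicates 1 and 2 lay below all WT arrays, and replicate 3 lay within the WT range. The Notch3 difference was -0.47 (SE 0.233, 95% interval -0.99 to 0.06, adjusted p = 0.897 in limma). Of 9 markers of mural cells, all 9 had a lower mean in DN-Clim, and they summed to intensities of 2817 on DN-Clim replicate 1, 2041 on replicate 2 and 2669 on replicate 3, against 3875 to 5624 in WT. None of the 9 passed the adjusted threshold. Most markers of other stromal cells were lower by mean too. Of 11 keratocyte markers 9 were lower, with sums of 22184 and 18243 on DN-Clim replicates 1 and 2 and of 40472 on replicate 3, where WT ran from 40147 to 45008. The other 2, Aldh1a1 (1.15) and Ptgds (0.73), had all DN-Clim arrays above all WT arrays, and 1 of the 11 had all below. Of all probe sets 3.20% lay all above and 6.95% all below. Of 7 macrophage markers all 7 were lower, with sums of 1797 to 2171 in DN-Clim, where WT ran from 2585 to 2994. Bulk RNA cannot tell fewer cells of a type from less RNA per cell, and the part of mural cell, keratocyte or macrophage content in the Notch3 values was not tested.

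The receptor means did not share a sign. Relative to its WT mean, Notch1 was at 0.45, 0.75 and 0.27 on DN-Clim replicates 1, 2 and 3. Notch2 was at -0.30, -0.46 and -0.12, and Notch3 at -0.69, -0.59 and -0.13. Each receptor kept its sign on all 3 DN-Clim arrays, and for each the smallest deviation was on DN-Clim replicate 3.

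**Figure D1:**
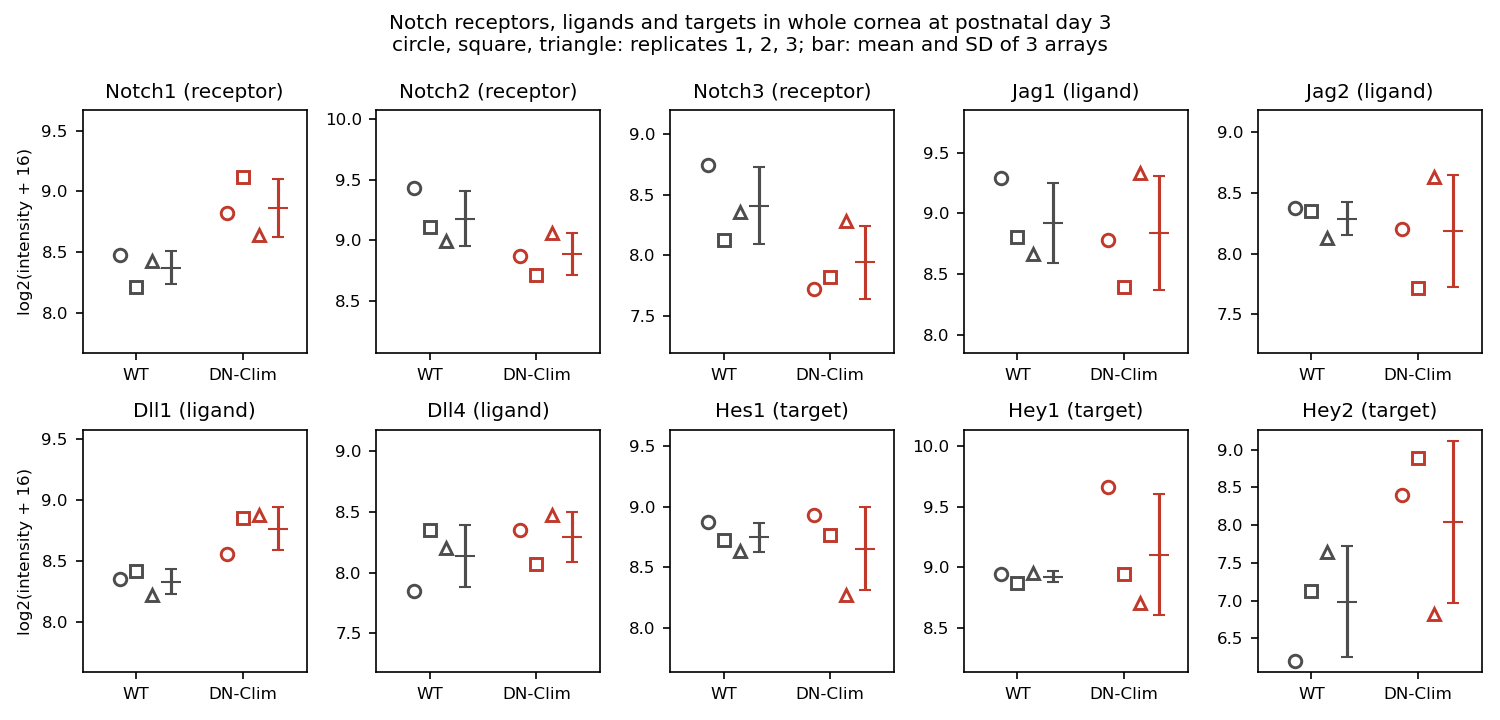
Log2(intensity + 16) of the 10 genes on each array (open symbols, 3 WT in grey and 3 DN-Clim in red) with the group mean and SD beside them. The vertical axes are set for each gene, with a wider span for Hey2. Notch1 and Dll1 are the genes whose DN-Clim arrays all lie above the WT arrays, while Hey2 is high on DN-Clim replicates 1 and 2 only among the DN-Clim arrays.

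Among the ligands, Dll1, a Delta-type ligand known from neural and other progenitors, separated the groups. Dll1 gave 8.35, 8.42 and 8.22 on the WT arrays and 8.56, 8.86 and 8.88 on the DN-Clim arrays, so that all DN-Clim arrays lay above all WT arrays, by a gap of 0.14. The Dll1 mean went from 8.33 ± 0.10 (SD, n = 3) to 8.76 ± 0.18 (SD, n = 3), a difference of 0.44 (SE 0.182, 95% interval 0.02 to 0.85) or 1.35-fold, with an unadjusted limma p of 0.040 and an adjusted p of 0.821. Dll1 was 0.23 above the WT mean on DN-Clim replicate 1, 0.53 above it on replicate 2 and 0.55 above it on replicate 3. The part of the lens or retina signal in the Dll1 values was not tested.

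Dll4, the Delta-type ligand of sprouting vessel endothelium, gave 7.85, 8.35 and 8.20 on the WT arrays and 8.35, 8.07 and 8.47 on the DN-Clim arrays. The groups overlapped, and the Dll4 difference was 0.16 (SE 0.207, 95% interval -0.30 to 0.63). Most markers of blood vessel endothelium were lower by mean. Of 10 such genes 8 had a lower mean in DN-Clim, and 1 of them, the endothelial sialomucin Emcn, fell past the adjusted threshold. The other 2, Kdr and Robo4, were at 0.39 and 0.03. The 10 summed to intensities of 2830 on DN-Clim replicate 1, 2858 on replicate 2 and 3757 on replicate 3, against 5263 to 5337 in WT, and the median of their differences was -0.85. The difference between Dll4 and the endothelial markers was not tested.

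The Jagged ligands, which are bound by the same receptors as the Delta-type ligands, had profiles like each other. Jag1 gave 9.29, 8.81 and 8.67 on the WT arrays and 8.78, 8.40 and 9.33 on the DN-Clim arrays. Jag2 gave 8.38, 8.35 and 8.13 on the WT arrays and 8.21, 7.72 and 8.64 on the DN-Clim arrays. For both genes the lowest array was DN-Clim replicate 2 and the highest DN-Clim replicate 3, and the 4 arrays between them stood in the same order. DN-Clim replicates 2 and 3 also had the lowest and highest median intensity of the 6 arrays. With each profile centred on its own mean, the root mean square difference between Jag1 and Jag2 over the 6 arrays was 0.146, the smallest among the 45 pairs of members. Genes outside the members lay nearer, such as Tex29 to Jag1 (0.0537) and Smim31 to Jag2 (0.0275). The part of scaling between arrays in this likeness was not tested. The group differences were -0.08 (SE 0.273) for Jag1 and -0.10 (SE 0.246) for Jag2, with 95% intervals of -0.70 to 0.53 and -0.65 to 0.45. The signs rested on single arrays: without DN-Clim replicate 2 the differences were 0.14 and 0.13, and without WT replicate 1 that of Jag1 was 0.10.

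The 3 target genes differed from each other in which array stood apart. Hes1, a repressor that holds progenitors undifferentiated in many tissues, gave 8.88, 8.72 and 8.64 on the WT arrays and 8.93, 8.76 and 8.27 on the DN-Clim arrays. DN-Clim replicates 1 and 2 lay among or just above the WT arrays, and replicate 3 was lowest of all 6. The Hes1 difference was -0.09 (SE 0.215, 95% interval -0.58 to 0.39), and it was 0.10 without DN-Clim replicate 3.

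Hey1, a Hey repressor of vessels and other tissues, read 8.94, 8.87 and 8.96 in WT, the narrowest WT range among the members at 0.09. It read 9.66, 8.94 and 8.70 in DN-Clim, so that replicate 1 lay above and replicate 3 below all WT arrays. The Hey1 difference was 0.18 (SE 0.252, 95% interval -0.39 to 0.75). Without DN-Clim replicate 1 it was -0.10.

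Hey2, the relative of Hey1 known from the heart, arteries and the inner ear, had the widest range of the members in both groups. It gave 6.20, 7.13 and 7.64 on the WT arrays and 8.40, 8.89 and 6.83 on the DN-Clim arrays, which are linear intensities of 57.4, 123.9 and 183.5 for WT against 322.3, 458.9 and 97.7 for DN-Clim. DN-Clim replicates 1 and 2 were above all WT arrays, while replicate 3 was below WT replicates 2 and 3, and so the groups overlapped. The Hey2 difference was 1.05 (SE 0.522, 95% interval -0.12 to 2.23) or 2.07-fold, with an adjusted p of 0.891 in limma. A difference of this size or more, in either direction, was found for 1.53% of the tested probe sets.

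The arrays high in Hey2 were also those high in markers of other eye tissue. Relative to the WT means, Hey2 was at 1.41, 1.90 and -0.16 on DN-Clim replicates 1, 2 and 3. The lens markers had medians of 1.28, 1.98 and -0.04, and the retina markers had medians of 1.08, 1.78 and 0.26. Within WT, replicate 3 was highest for Hey2 and for both marker lists, at 0.16 for lens and 0.44 for retina. On DN-Clim replicate 3 alone against WT the Hey2 difference was -0.16 (SE 0.467, adjusted p = 0.872 in limma). Without that array it was 1.66 (SE 0.38, adjusted p = 0.072). The part of the lens or retina signal in the Hey2 values was not tested beyond these fits.

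**Figure D2:**
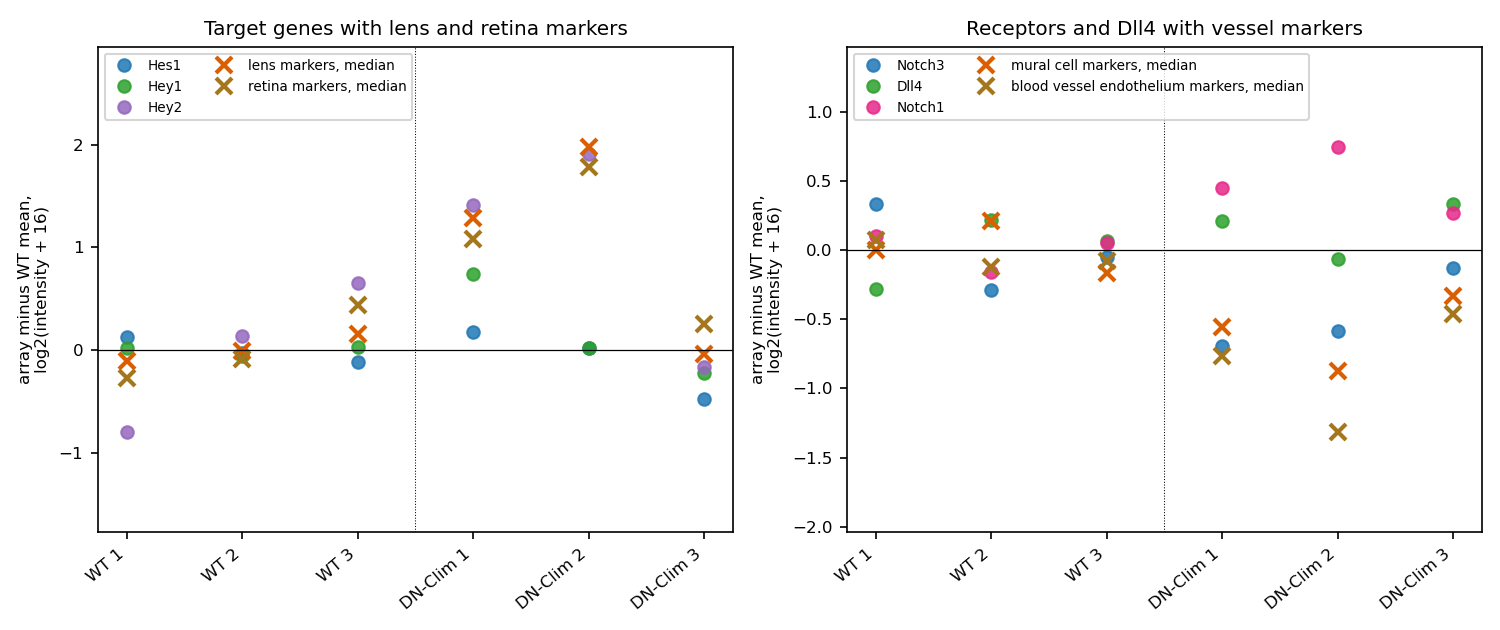
Each array minus the WT mean, on the log2(intensity + 16) scale, for the target genes with the medians of the lens and retina markers (left) and for Notch3, Dll4 and Notch1 with the medians of the mural cell and blood vessel endothelium markers (right). Hey2 reads 1.41 and 1.90 on DN-Clim replicates 1 and 2, beside lens medians of 1.28 and 1.98. Notch3 and the mural cell markers lie below 0 on all 3 DN-Clim arrays, and Notch1 above 0.

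Of the 10 members, 2 had all DN-Clim arrays above all WT arrays, where 3.20% of the tested probe sets did, and 0 had all below, where 6.95% did. These background shares were 6.24% above and 5.49% below with quantile normalization, which turns their order, and 4.57% and 5.23% with median centring. At an unadjusted p under 0.05 the members held the same genes, Notch1 and Dll1, as higher, where 1.45% of probe sets were higher and 4.49% lower. The counts of all probe sets at that p depended on the scaling too. They were 340 higher and 1050 lower as deposited, 625 and 867 with quantile normalization, and 461 and 851 with median centring. Notch1 and Dll1 kept their separation under both, and under median centring Notch2 became separated as lower. The count of members at that p was 0 without WT replicate 1, WT replicate 2 or DN-Clim replicate 2. The shares of all probe sets were then 2.73%, 3.06% and 5.30%. Counts of 1 came without WT replicate 3 (5.15% of all) and without DN-Clim replicate 1 (3.96%). A block for replicate number (4.98%) and a lens signal covariate (15.3%) also gave 1, and leaving out DN-Clim replicate 3 gave 3 (20.6%). Across the members, the DN-Clim arrays spread more than the WT arrays, with a median range of 0.61 against 0.35, as did all tested probe sets, at 0.61 and 0.30.

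**Figure D3:**
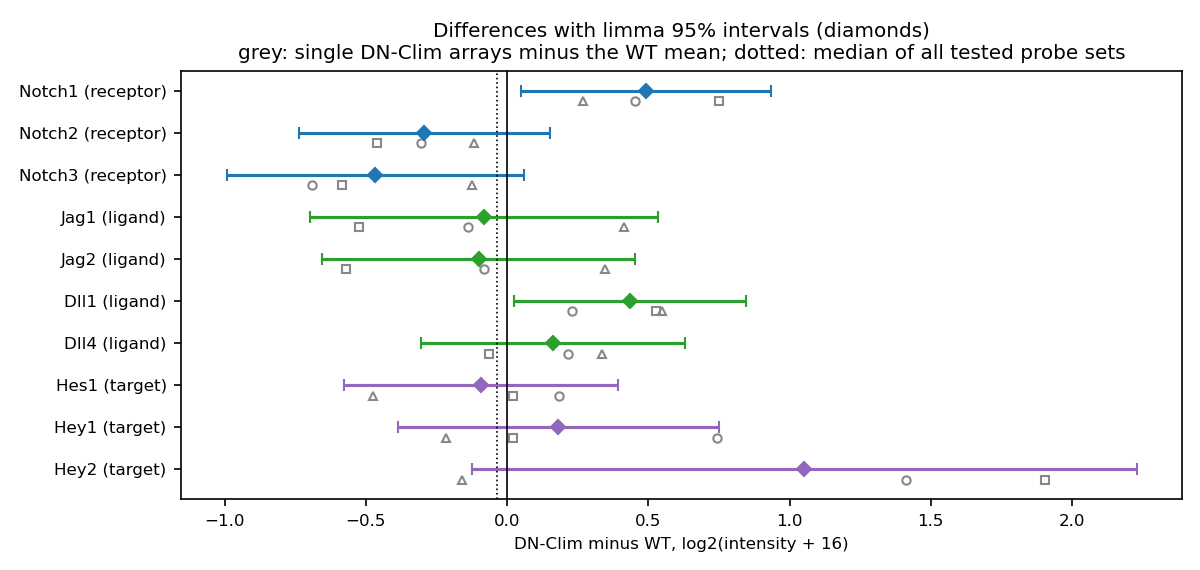
DN-Clim minus WT difference of each gene with its limma 95% interval (diamonds and bars, coloured by role), and each DN-Clim array minus the WT mean (grey circle, square and triangle for replicates 1, 2 and 3), in log2 units. The intervals of Notch1 (0.05 to 0.93) and Dll1 (0.02 to 0.85) lie above 0, before adjustment over 23410 probe sets, and that of Hey2 is the widest, at -0.12 to 2.23.

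No member passed in any alternative fit except those with array weights. With array weights estimated gene by gene, an alternative added after the data were seen, Notch1 (0.53, adjusted p = 0.0397), Hey1 (0.63, adjusted p = 0.044) and Hey2 (1.31, adjusted p = 0.0283) passed in limma. Those weights were 3.06 and 0.385 for DN-Clim replicates 1 and 2 and 0.199 for replicate 3, so that the DN-Clim mean was mostly replicate 1, and 2059 probe sets passed in that fit.

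The other genes of the pathway came from a list by role, of which 53 of 55 were matched to a probe set. None passed the adjusted threshold (lowest adjusted p 0.891 in limma), and 0 had an unadjusted p under 0.05, where 5.94% of all probe sets did. By mean, 31 were higher and 22 lower in DN-Clim, with a median difference of 0.03. The groups did not overlap for 5 of the 53, where 10.1% of all probe sets did not.

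Among the proteases that process ligands and receptors, 8 of 9 had a lower mean, where 57.2% of all probe sets did as deposited. Their differences ran from -0.38 to 0.01, with a median of -0.10. On DN-Clim replicate 3 they were split, from -0.60 to 0.41 relative to their WT means. Adam17, a sheddase that can cut Notch at the cell surface, gave 9.97, 9.74 and 9.93 on the WT arrays and 9.51, 9.70 and 9.28 on the DN-Clim arrays, with all DN-Clim arrays below all WT arrays. The Adam17 difference was -0.38 (SE 0.189, adjusted p = 0.891 in limma). Aph1a, a subunit of the gamma-secretase that releases the intracellular part, was also lower without overlap, at -0.30 (SE 0.184).

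Among the nuclear partners of the intracellular part, 6 of 7 had a higher mean and the median difference was 0.18. On DN-Clim replicate 3, however, most of the 7 lay below their WT means, between -0.23 and -0.01, and the exception was at 0.23. Snw1, a nuclear coregulator that binds the intracellular part, gave 10.16, 10.13 and 10.39 on the WT arrays and 10.89, 10.82 and 10.03 on the DN-Clim arrays. As for Hey2, DN-Clim replicates 1 and 2 were above all WT arrays and replicate 3 was not. Rbpj, the DNA-binding partner itself, differed by 0.26 (SE 0.22) and likewise was at 0.24 and 0.65 on replicates 1 and 2 and at -0.10 on replicate 3. Among the corepressors 6 of 7 had a higher mean, but on DN-Clim replicate 3 they were split, from -0.27 to 0.39 relative to their WT means. Hdac1, a histone deacetylase, gave 10.38, 10.36 and 10.42 on the WT arrays and 10.74, 10.75 and 10.65 on the DN-Clim arrays. Its groups did not overlap, and the difference was 0.33 (SE 0.166, adjusted p = 0.897 in limma).

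Of the genes for trafficking and turnover of ligands and receptors, 9 of 12 had a higher mean. Mib1 and Mib2, ubiquitin ligases that act on Notch ligands, separated the groups in opposite directions, at 0.25 (SE 0.172) and -0.25 (SE 0.174). Rbpj, Aph1a, Mib1 and Mib2 were singled out after their values were seen. Fbxw7, a ubiquitin ligase subunit that marks the intracellular part for destruction, had the largest difference among the 53, at 0.59 (SE 0.461). Fbxw7 gave 9.90, 10.15 and 10.98 on the WT arrays and 11.05, 11.85 and 9.89 on the DN-Clim arrays, again high on replicates 1 and 2 and not on replicate 3.

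Of 8 further target genes 4 were higher and 4 lower by mean. Nrarp, a target that feeds back on the intracellular part, differed by 0.35 (SE 0.214), with 0.35, 0.64 and 0.05 on DN-Clim replicates 1, 2 and 3 relative to the WT mean. Of the remaining groups, Dlk1, a Delta-like protein, differed by -0.34 (SE 0.258), and Mfng, a sugar transferase that modifies Notch, by 0.27 (SE 0.221).

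**Figure D4:**
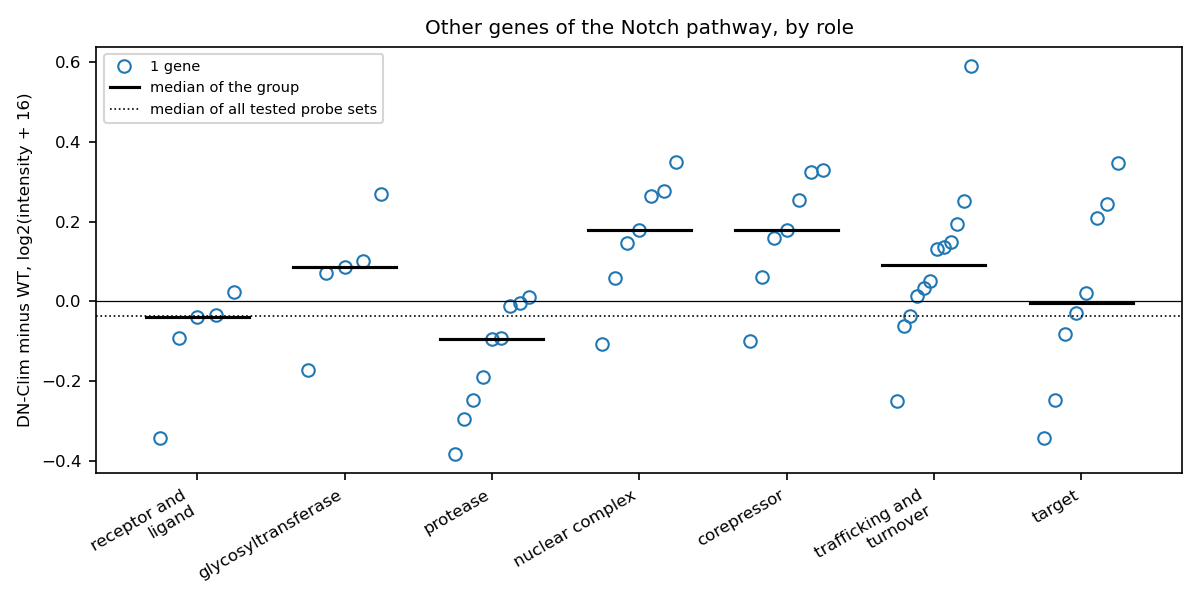
DN-Clim minus WT difference on the log2(intensity + 16) scale for 53 other genes of the pathway (open circles, 1 per gene), grouped by role, with the median of each group (black bar) and the median of all tested probe sets (dotted line). Proteases have a median of -0.10 and the nuclear complex one of 0.18. No gene passed the adjusted threshold.

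As a description of the profiles over the 6 arrays, the most like genes were sought for each member among 17356 named genes with a mean of at least 7. Hey2 was closest to Otx2, a homeobox factor of the retinal pigment epithelium and photoreceptors, with a root mean square difference of 0.111 between centred profiles. Otx2 gave 10.07, 10.75 and 11.63 on the WT arrays and 12.28, 12.69 and 10.64 on the DN-Clim arrays, and its arrays stood in the same order as those of Hey2. Notch1 was closest to Med13, a subunit of the Mediator complex (0.0381), and Notch3 to Rpn1, a subunit of oligosaccharyltransferase (0.0915), with the connective tissue growth factor relative Ccn4 next (0.0916). Dll1 was closest to Lhx9, a LIM homeobox gene (0.0521), and Jag2 to Smim31 (0.0275). With 6 arrays and this many candidates some gene is always near, and many genes share the differences between arrays in marker signal.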

How the data were processed

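Per the labels' protocols, non-corneal tissue was dissected away and quantitative PCR was used to look for RNA of neighbouring tissues, before amplification with a NuGEN kit and hybridisation to Affymetrix Mouse Gene 1.0 ST arrays. The values the authors deposited are probe set intensities on a linear scale, made per the submitters' processing notes with Affymetrix Expression Console 1.1 and PLIER. Which background correction, normalization and centring PLIER used is not given in the sources used here, and the number of arrays limits the precision. Here intensities were taken as log2(intensity + 16), which understates differences of dim genes, and array medians on that scale differed by at most 0.267, so the arrays were not normalized again. The platform table gave 21789 probe sets with 1 symbol and 1621 with several, which name no gene. The other 12147 were not tested. Of several probe sets for a gene the one with the highest mean was used. Among the named pathway genes Aph1a, Rbpj, Hdac1 and Fbxw7 each had 2, and their other probe set is not described here. The 23410 probe sets with a gene were fitted in R 4.3.3 by limma 3.58.1 (lmFit, eBayes, Benjamini-Hochberg, threshold 0.05). In simulated data for DN-Clim against WT over 23410 probe sets 29.9% of true 2-fold changes were recovered, 80.6% of 4-fold ones and 95.5% of 8-fold ones, and 7 calls were false. The members and gene lists were chosen with earlier results of these data known. Named were all members, the gene with the largest absolute difference of each other role, any other pathway gene with an unadjusted p under 0.05 (0 were found), and the 2 nearest profiles of a member, of which the nearest are given for some. Outside this rule, Rbpj, Aph1a, Mib1 and Mib2 were named after their values were seen. Promoter sequences and starts are RefSeq's, build GRCm38.p6. Alternatives were other offsets, normalizations, filters, priors, weights, a replicate block, a lens covariate and leaving out arrays.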

Additional observations from a re-analysis of the deposited data

How the results depend on the processing

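Results were refitted in 17 other ways, and 1 more, gene by gene weights, was chosen after seeing the data. Set against the main values of the 10 members, 157 alternative values had the same sign and call, 8 gained a call and 15 had the opposite sign. For 10 other pathway genes these were 165, 9 and 6. Each of the 10 members has a single probe set of its own, so the alternative of another probe set could not be run. The count of members past the threshold stayed 0 except with weights, as did that of other pathway genes, and both were 0 without any single array.

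The planned array weights did not converge and put a weight of 34.9 on DN-Clim replicate 1. They gave 9004 probe sets past the threshold, 5 members, 22 other pathway genes and a member median of 0.16, with Hes1 at 0.19. Gene by gene weights gave 2059, 3 members and 2 other genes, with Hes1 at 0.14.

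The count over all probe sets was 3, and became 1 with quantile normalization, 0 with all probe sets of the table, 5 with a trended robust prior, 9 with the replicate block, 10 with the lens covariate, 79 with DN-Clim replicate 3 alone, and 0 to 483 without single arrays. The 483 came without DN-Clim replicate 3, and leaving out any other array gave 0. The member median ran from -0.077 (without DN-Clim replicate 1) to 0.20 (without DN-Clim replicate 2).

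With the lens covariate, Jag1 was at 0.41, Jag2 at 0.33, Hey1 at -0.17, Hey2 at -0.13, Dlk1 at 0.13, Snw1 at -0.16 and Fbxw7 at -0.43. With DN-Clim replicate 3 alone, assumed to vary like WT, they were at 0.41, 0.35, -0.22, -0.16, 0.14, -0.20 and -0.45. These are not separate checks, since the covariate sets DN-Clim replicates 1 and 2 apart. Without single arrays Jag1 ran from -0.33 to 0.14, with 0.10 without WT replicate 1, Jag2 from -0.33 to 0.13, Hes1 from -0.23 to 0.10 and Hey1 from -0.10 to 0.38. The cause of these changes was not tested.

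Deviations of same-numbered WT and DN-Clim samples from their group means had correlations of 0.017, -0.206 and -0.436. Those of differently numbered samples ran from -0.277 to 0.452. Deviations from a mean of 3 arrays are tied to each other, so these values cannot tell whether same-numbered samples shared a litter or batch. The main fit used no pairing. The replicate block raised the count over all probe sets to 9 and left the members at 0.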
